A study of Mus musculus with 42 samples.

Results

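The genes described here are 40 that act in the G2 phase and mitosis of the cell cycle, taken by symbol from the 55401 genes of each library. All 40 symbols were found, each with 1 gene identifier, and none was at 0 in any of the 42 libraries. Their lowest value was 8.54 TPM (a share of all transcripts, corrected for gene length), so every member passed the filters on low values. Cells of 7 mouse tumour lines received RECTAS at 10 µM, in 0.1% DMSO, or the DMSO vehicle alone, and their RNA was taken 6 h later, in 3 libraries per line and condition. The solid tumour lines were the melanoma B16, the carcinomas of colon CT26 and MC38, of lung LLC and of pancreas Pan02, and the blood-derived lines were the lymphoma EG7, with an added ovalbumin gene, and the myelomonocytic leukaemia WEHI3. RECTAS is a small molecule known to change splicing, and the series' title names neoepitopes from splicing as its aim. No label states if replicate libraries are separate cultures, so all p-values measure the spread between these libraries, which may be technical.

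Entry into mitosis is driven by the kinase Cdk1 bound to a B-type or A-type cyclin, which the phosphatases Cdc25b and Cdc25c switch on and the kinase Wee1 restrains. Kinetochores then attach chromosomes to the spindle, a checkpoint holds back the anaphase-promoting complex until attachment is complete, and that complex then marks securin and the cyclins for destruction. Most of these genes are transcribed in G2 and mitosis and repressed in resting cells, through the CHR element of their promoters (cell cycle genes homology region), which the DREAM and MuvB-FOXM1 complexes bind, and through CCAAT boxes bound by NF-Y. In bulk RNA, fewer cells in G2 or mitosis and less of a transcript in each cell cannot be told apart.

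The promoters of the set shared short sequences that the choice of members did not use. RefSeq promoter windows on GRCm38.p6, from 250 bases before to 50 bases after the start, were available for 33 members with 36 windows, and no window was used for Aurkb, Ccna2, Cdc25c, Dlgap5, Kif20a, Tpx2 or Wee1. The CHR letters TTTGAA, read on both strands, stood in 26 of the 36 windows (72.2%) and in 17.9% of all 32851 windows in the table. The related form TTCGAA stood in 4 of 36 (11.1%), against 1.56% of all. The letters CCAAT, on either strand, stood in 27 of 36 (75.0%), against 37.4%. Windows with CCAAT and either CHR form made up 25 of 36 (69.4%), against 7.52% of all windows. Bub3, Ect2 and Prc1 each enter with overlapping windows. Counted by gene, TTTGAA stood in 69.7% of 33 members, against 20.2% of all 27025 genes. By gene, CCAAT stood in 72.7% (41.1% of all) and CCAAT with either CHR form in 66.7% (8.61% of all). The E2F-like letters TTCCCGC were in 0 of 36 windows and in 4.6% of all, and no motif searched contains another, though neighbouring matches can share an end base. A match is a description of letters and not a measured binding site.

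The stretches below are the 100 bases before the start, written 5′ to 3′ on the strand of the gene, with the CHR letters and the CCAAT letters of either strand in capitals (TTTGAA or TTCAAA, and CCAAT or ATTGG). The first 8 are all the members in which both motifs lay within these 100 bases.
Bub3 (chr7:131560270-131560369, plus strand): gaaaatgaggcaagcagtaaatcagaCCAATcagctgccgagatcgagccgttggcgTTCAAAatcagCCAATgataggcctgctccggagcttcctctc
Cdc20 (chr4:118437344-118437443, minus strand): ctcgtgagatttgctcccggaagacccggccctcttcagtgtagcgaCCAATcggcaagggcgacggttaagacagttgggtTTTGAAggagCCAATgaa
Cdk1 (chr10:69352913-69353012, minus strand): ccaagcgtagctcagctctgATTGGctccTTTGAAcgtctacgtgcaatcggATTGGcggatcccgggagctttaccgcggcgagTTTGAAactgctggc
Espl1 (chr15:102296193-102296292, plus strand): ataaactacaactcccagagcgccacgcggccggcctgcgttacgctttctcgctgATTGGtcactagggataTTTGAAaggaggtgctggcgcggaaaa
Kif11 (chr19:37376282-37376381, plus strand): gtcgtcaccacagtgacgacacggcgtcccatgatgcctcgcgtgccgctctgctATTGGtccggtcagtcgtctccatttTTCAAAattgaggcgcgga
Prc1 (chr7:80294376-80294475, plus strand): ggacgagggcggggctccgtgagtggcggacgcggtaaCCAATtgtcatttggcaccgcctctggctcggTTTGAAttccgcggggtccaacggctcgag
Top2a (chr11:99024190-99024289, minus strand): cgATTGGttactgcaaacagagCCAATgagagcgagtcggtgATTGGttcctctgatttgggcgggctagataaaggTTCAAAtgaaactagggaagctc
Ube2c (chr2:164769829-164769928, plus strand): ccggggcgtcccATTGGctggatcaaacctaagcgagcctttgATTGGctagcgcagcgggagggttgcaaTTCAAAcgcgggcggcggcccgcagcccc
These 8 include members that rose with RECTAS (Bub3, Ube2c) and members that did not pass the test (Cdc20, Cdk1, Espl1, Kif11, Prc1, Top2a). The next 6 are shown because, with Bub3, they had a RECTAS difference of the same sign in all 7 lines, the first 4 lower and the last 2 higher.
Plk1 (chr7:122159335-122159434, plus strand): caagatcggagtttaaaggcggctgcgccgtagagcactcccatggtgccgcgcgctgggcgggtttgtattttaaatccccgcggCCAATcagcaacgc
Birc5 (chr11:117849137-117849236, plus strand): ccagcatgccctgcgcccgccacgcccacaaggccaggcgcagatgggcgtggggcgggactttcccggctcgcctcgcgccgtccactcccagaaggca
Bub1 (chr2:127831860-127831959, minus strand): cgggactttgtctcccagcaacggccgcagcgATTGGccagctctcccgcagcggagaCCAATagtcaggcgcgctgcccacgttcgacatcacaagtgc
Bub1b (chr2:118598111-118598210, plus strand): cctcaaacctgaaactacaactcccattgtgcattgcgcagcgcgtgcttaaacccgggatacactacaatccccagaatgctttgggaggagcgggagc
Cenpa (chr5:30666786-30666885, plus strand): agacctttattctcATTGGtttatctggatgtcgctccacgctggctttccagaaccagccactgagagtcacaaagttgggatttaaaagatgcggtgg
Nuf2 (chr1:169531465-169531564, minus strand): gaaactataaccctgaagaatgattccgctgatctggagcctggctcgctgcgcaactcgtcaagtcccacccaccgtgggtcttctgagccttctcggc
Plk1, Bub1 and Cenpa held CCAAT letters in these 100 bases, and Birc5, Bub1b and Nuf2 held neither motif there.

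**Figure D1:**
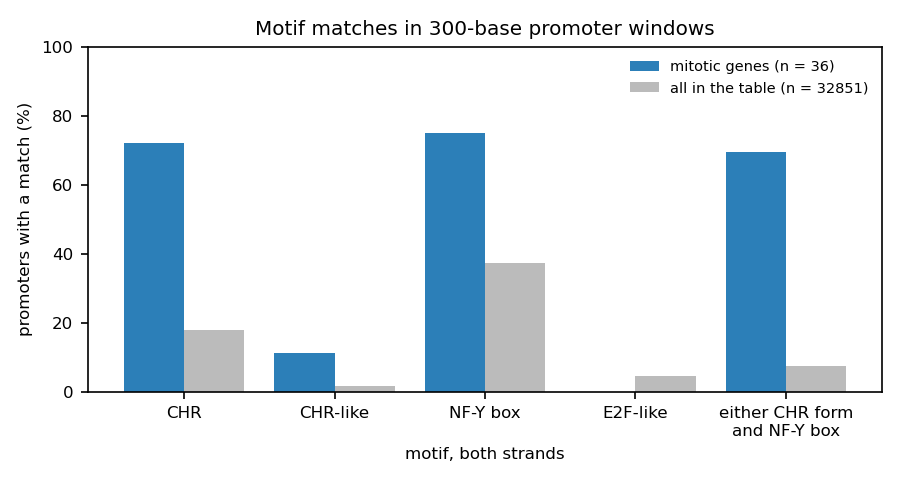
Share of promoter windows of 300 bases (y axis, percent) that hold each motif on either strand (x axis), for 36 windows of the mitotic genes (blue) and all 32851 windows in the table (grey). The NF-Y box is the CCAAT box. The mitotic genes stand at 72.2% for CHR and 75.0% for the NF-Y box, and all windows at 17.9% and 37.4%.

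Each library held 11001 to 12205 genes at 1 TPM or more, with 8.64% to 12.04% of its transcripts in its 10 leading genes. Replicates correlated at 0.990 to 0.995 on the log2 scale, over genes averaging 1 TPM or more. TPM carry no read counts, so the depth is unknown and no counting interval is given. All 8 melanocyte markers were expressed in B16, 8 of 10 T lymphoid markers in EG7 and 9 of 10 myelomonocytic markers in WEHI3. The lists were not exclusive. In DMSO, 3 of 10 T lymphoid markers reached 1 TPM in WEHI3, with a list mean of 220 TPM against 159 TPM in EG7. The myelomonocytic list averaged 81.0 TPM in B16, with 2 of 10 at 1 TPM. Mesenchymal markers at 1 TPM numbered 9 of 9 in CT26, 8 in LLC and Pan02, 7 in MC38, 6 in B16, 4 in WEHI3 and 2 in EG7. Epithelial markers reached 1 TPM for 6 of 9 genes in Pan02, 2 of 9 in LLC and 0 of 9 in CT26 and MC38, where no library mean of the colon lines exceeded 0.098 TPM although they are labelled carcinoma. The second DMSO library of LLC stood apart for several members. The test of unequal RECTAS differences, the vehicle counts of LLC and the calls over all lines are given with and without it. The sums, the spreads between replicates and their correlations are given with it alone.

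With vehicle alone, the 40 genes together were most abundant in B16 and LLC and least abundant in WEHI3 and EG7. Their sum was 0.525% ± 0.0122 of all transcripts in B16 (SD, n = 3), 0.512% ± 0.0202 in LLC and 0.480% ± 0.00487 in Pan02. It was 0.463% ± 0.00599 in MC38 and 0.434% ± 0.00631 in CT26. The blood-derived lines stood lowest, at 0.347% ± 0.00223 in EG7 and 0.330% ± 0.00480 in WEHI3. No library of EG7 or WEHI3 reached the lowest library of another line, while B16 and LLC overlapped. Cdk1 alone made up 12.9% of the summed level, at a mean of 569.7 TPM over the DMSO libraries, and Wee1 was lowest at 18.59 TPM.

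**Figure D2:**
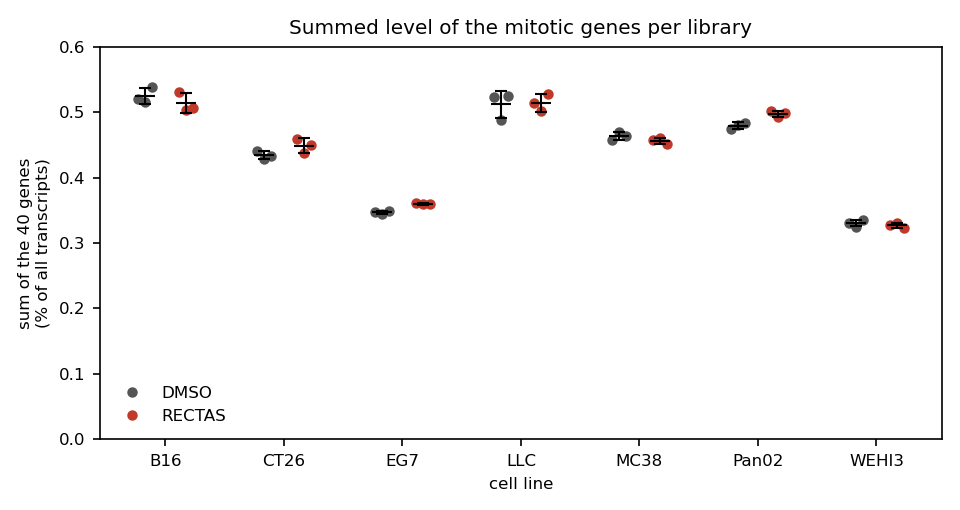
Summed level of the 40 mitotic genes in each library (y axis, percent of all transcripts) for each line (x axis). Grey points are DMSO libraries, red points RECTAS libraries, and black marks the mean and SD of 3. The B16 and LLC libraries lie between 0.489% and 0.539%, and those of EG7 and WEHI3 between 0.323% and 0.361%.

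Every member differed between the lines in vehicle: the limma F-test over the 21 DMSO libraries called 40 of 40, where 98.1% of all 13525 genes tested were called. A difference of at least 1 (log2) between the highest and the lowest line was seen for 28 of 40, against 78.9% of all genes, and the median range was 1.25 for the members and 1.70 for all genes. B16 was the highest line for 13 members and LLC for 8, and WEHI3 was the lowest for 15 and EG7 for 11. EG7 and WEHI3 both lay below the other 5 lines for 14 members, among them Cenpa, Nuf2, Spc25, Tpx2, Kif2c, Ube2c and Birc5. They both lay above the other 5 for 3 members, the kinase Wee1, securin (Pttg1) and the spindle motor Kif11. The line with the highest level was the same in RECTAS as in DMSO for 33 members, and the line with the lowest for 35. Among neighbours in the order of the lines, the libraries overlapped in 88 of 240 pairs, and the number of such pairs ranged from 0 to 5 of 6 per member.

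**Figure D3:**
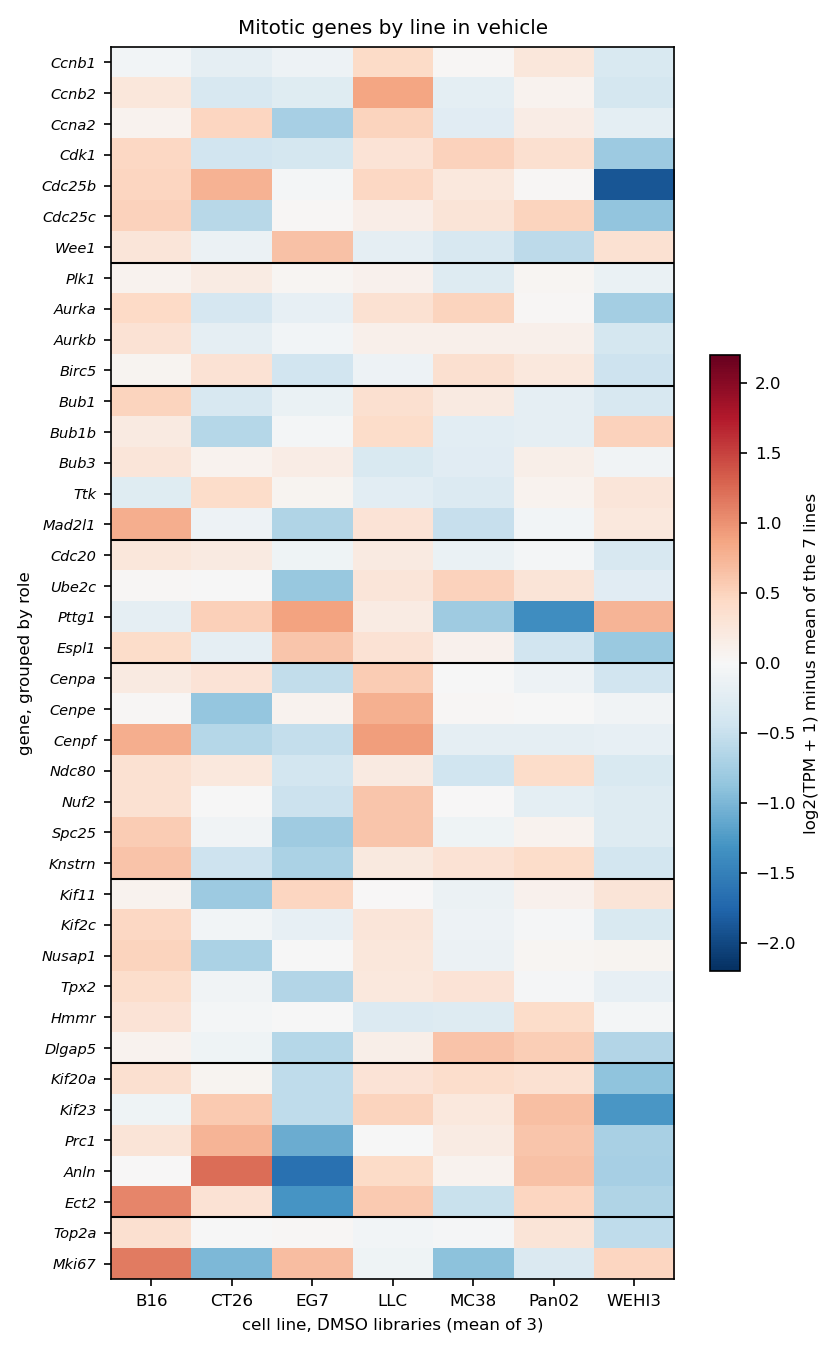
Levels of the 40 genes (rows, grouped by role from the cyclins at the top to chromosome proteins at the bottom) in the 7 lines (columns), as the mean log2(TPM + 1) of 3 DMSO libraries minus the mean of the 7 lines. Red is above and blue below that mean. The deepest blue is Cdc25b in WEHI3 and the deepest red Anln in CT26, and the row of Plk1 is nearly even, with a range of 0.46.

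The regulators of Cdk1 differed most at Cdc25b, the phosphatase that starts Cdk1 activation. In B16, Cdc25b was measured at 86.8, 81.6 and 80.2 TPM in vehicle. In CT26, Cdc25b was measured at 101.91, 100.68 and 102.01 TPM in vehicle. In EG7, Cdc25b was measured at 56.9, 57.1 and 58.8 TPM in vehicle. CT26 was the highest line, and EG7 overlapped Pan02. In LLC, Cdc25b was measured at 79.2, 83.0 and 83.9 TPM in vehicle. In MC38, Cdc25b was measured at 70.2, 70.7 and 70.0 TPM in vehicle. In Pan02, Cdc25b was measured at 62.5, 61.3 and 57.9 TPM in vehicle. B16 and LLC overlapped. In WEHI3, Cdc25b was measured at 16.5, 13.9 and 15.8 TPM in vehicle. WEHI3 stood below every other line. The log2 difference of WEHI3 from the mean of the other 6 lines was -2.21 ± 0.036 (SE; limma adjusted p = 1.46e-19). The related phosphatase Cdc25c was also at least 1 (log2) lower in WEHI3 (log2 difference -1.01), and cyclin B2 (Ccnb2) was higher in LLC, by 1.02. With median-ratio scaling neither was counted at 1 log2, nor was Kif20a in WEHI3. Wee1, which opposes both phosphatases, ranged from a geometric mean of 11.6 TPM in Pan02 to 28.5 TPM in EG7.

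Securin, encoded by Pttg1, blocks the protease separase until anaphase and was highest in the blood-derived lines. In B16, Pttg1 was measured at 53.1, 53.7 and 56.6 TPM in vehicle. In CT26, Pttg1 was measured at 84.9, 90.8 and 95.7 TPM in vehicle. In EG7, Pttg1 was measured at 114, 114 and 122 TPM in vehicle. EG7 was the highest line. In LLC, Pttg1 was measured at 73.2, 67.0 and 74.9 TPM in vehicle. In MC38, Pttg1 was measured at 35.0, 36.7 and 36.9 TPM in vehicle. In Pan02, Pttg1 was measured at 21.5, 25.2 and 24.4 TPM in vehicle. Pan02 was the lowest line, with no overlap with another. In WEHI3, Pttg1 was measured at 110.1, 103 and 106 TPM in vehicle. EG7 lay 1.03 ± 0.044 (SE) above the mean of the other 6 lines (log2, limma adjusted p = 1.61e-13) and the log2 difference of Pan02 was -1.60 (adjusted p = 3.89e-16). With median-ratio scaling, Pttg1 was no longer counted at 1 log2 in EG7 and Ube2c was counted in its place.

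The kinetochore motor Cenpe and the kinetochore protein Cenpf were highest in LLC, but their replicates spread widely there. In B16, Cenpe was measured at 18.5, 20.4 and 21.2 TPM in vehicle. In CT26, Cenpe was measured at 11.6, 11.2 and 8.67 TPM in vehicle. In EG7, Cenpe was measured at 20.9, 20.5 and 20.7 TPM in vehicle. CT26 was the lowest line. In LLC, Cenpe was measured at 46.1, 21.03 and 41.5 TPM in vehicle. In MC38, Cenpe was measured at 16.1, 24.2 and 19.9 TPM in vehicle. In Pan02, Cenpe was measured at 21.3, 20.9 and 16.6 TPM in vehicle. The second LLC library lay within the range of MC38, B16 and Pan02, and the other LLC libraries above every other line. In WEHI3, Cenpe was measured at 18.4, 18.7 and 18.4 TPM in vehicle. For Cenpf, LLC lay 1.07 ± 0.211 (SE) above the other 6 lines (log2, adjusted p = 0.000174). Without the first or the third LLC library Cenpf was no longer counted at 1 log2 and Ccnb2 alone was, and without the second library Cenpe was counted as well, for 3 members in all.

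Of the genes of the central spindle and of cytokinesis, which split the daughter cells, Anln had the widest range of the 40 members. It encodes anillin, a scaffold of the contractile ring. In B16, Anln was measured at 82.5, 83.1 and 84.3 TPM in vehicle. In CT26, Anln was measured at 194, 192 and 196 TPM in vehicle. In EG7, Anln was measured at 27.0, 25.6 and 24.6 TPM in vehicle. CT26 and EG7 were the extremes. In LLC, Anln was measured at 117, 99.4 and 116 TPM in vehicle. In MC38, Anln was measured at 86.1, 89.8 and 86.6 TPM in vehicle. In Pan02, Anln was measured at 133, 126 and 133 TPM in vehicle. No neighbouring lines overlapped. In WEHI3, Anln was measured at 48.8, 48.1 and 50.6 TPM in vehicle. CT26 lay 1.42 ± 0.037 (SE) above the other 6 lines and EG7 lay below them, with a log2 difference of -1.92 ± 0.037 (limma adjusted p = 1.96e-16 and 1.45e-18).

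Ect2, which activates the small GTPase RhoA at the site of division, was highest in B16. In B16, Ect2 was measured at 107, 107 and 123 TPM in vehicle. In CT26, Ect2 was measured at 69.6, 65.2 and 63.2 TPM in vehicle. In EG7, Ect2 was measured at 20.1, 20.7 and 21.9 TPM in vehicle. EG7 was lowest in every library. In LLC, Ect2 was measured at 86.2, 71.4 and 81.5 TPM in vehicle. In MC38, Ect2 was measured at 34.2, 40.7 and 37.8 TPM in vehicle. In Pan02, Ect2 was measured at 71.6, 71.7 and 78.5 TPM in vehicle. LLC and Pan02 overlapped, as did MC38 and WEHI3. In WEHI3, Ect2 was measured at 31.7, 33.5 and 34.4 TPM in vehicle. B16 lay 1.25 above the other 6 lines and EG7 at -1.52 against them, on the log2 scale.

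Kif23, a kinesin of the central spindle, was low in WEHI3. In B16, Kif23 was measured at 83.2, 82.6 and 90.7 TPM in vehicle. In CT26, Kif23 was measured at 148, 135 and 127 TPM in vehicle. In EG7, Kif23 was measured at 68.1, 55.5 and 62.5 TPM in vehicle. EG7 was the next lowest line. In LLC, Kif23 was measured at 134, 117 and 136 TPM in vehicle. In MC38, Kif23 was measured at 107, 109 and 108 TPM in vehicle. In Pan02, Kif23 was measured at 147, 140.5 and 147 TPM in vehicle. Pan02, CT26 and LLC overlapped at the top. In WEHI3, Kif23 was measured at 36.7, 35.2 and 39.7 TPM in vehicle. WEHI3 differed by -1.49 ± 0.055 (SE) from the other 6 lines (log2), and Kif20a, another kinesin of cytokinesis, by -1.03.

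Prc1, which bundles antiparallel microtubules of the central spindle, was low in EG7. In B16, Prc1 was measured at 96.9, 100.3 and 106 TPM in vehicle. In CT26, Prc1 was measured at 143, 136 and 139 TPM in vehicle. In EG7, Prc1 was measured at 37.1, 38.2 and 39.6 TPM in vehicle. EG7 stood below all others. In LLC, Prc1 was measured at 85.3, 77.4 and 84.7 TPM in vehicle. In MC38, Prc1 was measured at 89.6, 99.5 and 93.3 TPM in vehicle. In Pan02, Prc1 was measured at 123, 127 and 132 TPM in vehicle. CT26 and Pan02 stood at the top without overlap between them. In WEHI3, Prc1 was measured at 52.2, 47.1 and 50.8 TPM in vehicle. EG7 differed from the other 6 lines by -1.27 ± 0.038 (SE, log2). Prc1 shares 11.1% of its exonic bases with Rccd1 on the opposite strand, and the strand setting of the counting is not given in the sources used here, so its level is uncertain to that extent.

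The proliferation antigen Mki67, which coats mitotic chromosomes, was high in EG7 and WEHI3, unlike the summed level of the set. In B16, Mki67 was measured at 148, 158 and 156 TPM in vehicle. In CT26, Mki67 was measured at 39.8, 37.2 and 27.8 TPM in vehicle. In EG7, Mki67 was measured at 109, 112 and 112 TPM in vehicle. EG7, low in the sum, was second only to B16. In LLC, Mki67 was measured at 79.8, 43.0 and 78.2 TPM in vehicle. In MC38, Mki67 was measured at 30.0, 43.5 and 38.0 TPM in vehicle. In Pan02, Mki67 was measured at 60.8, 56.3 and 48.9 TPM in vehicle. The second LLC library again stood below the others of its group. In WEHI3, Mki67 was measured at 97.2, 94.3 and 99.3 TPM in vehicle. B16 lay 1.33 ± 0.141 (SE) above the other 6 lines, and CT26 and MC38 differed from them by -1.15 and -1.04 (log2). Without the third DMSO library of CT26, or the first of MC38, that line's difference was no longer counted at 1 log2.

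Counted by line, at least 1 log2 above the other 6 were 2 members in B16 (16% of all genes), 1 in CT26 (11.6%), 1 in EG7 (9.79%), 2 in LLC (9.6%) and 0 in MC38 (10.8%), Pan02 (11.3%) and WEHI3 (15%). At least 1 log2 below were 0 in B16 (11.6%) and LLC (9.12%), 1 in CT26 (10.5%), MC38 (9.83%) and Pan02 (11.1%), 3 in EG7 (21.2%) and 4 in WEHI3 (16.3%). The shares of 40 members are thus below those of all genes in every line and direction. Without the size threshold, limma called 31 members higher and 3 lower in B16 (46.9% and 38.3% of all genes), 31 and 5 in LLC (40.5% and 40.3%) and 19 and 9 in Pan02 (37.5% and 44.7%). The counts were 15 and 18 in CT26 (36.4% and 47.3%), 15 and 16 in MC38 (41.2% and 41.4%), 7 and 26 in EG7 (37.5% and 48.8%) and 7 and 29 in WEHI3 (37.6% and 47.7%). The members also ordered the lines alike more than genes at large. The median correlation over the 7 line means was 0.36 for the 780 pairs of members and 0.0068 over pairs of all 13525 genes, as a description over 7 points that share their libraries. Kif20a followed the other members most closely, with a median correlation of 0.66.

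After RECTAS, 9 members rose and 6 fell in the average of the 7 lines, by small amounts. Of the 40 members, 15 passed the limma test on the mean of the 7 differences (37.5%), where 25.8% of all 8775 genes tested did. The 9 that rose (9.86% of all genes rose) were Cenpa, Bub3, Nusap1, Ube2c, Kif20a, Nuf2, Ccnb1, Tpx2 and Anln, and the 6 that fell (15.9% of all genes) were Plk1, Birc5, Bub1, Cdc25b, Bub1b and Kif23. No mean difference of a member exceeded 0.20 (log2) in size, and the members' median was 0.02 against -0.003 for all genes. Lower calls made up 61.7% of all calls on the TPM themselves, 51.6% once libraries were scaled by median ratios and 47.1% with quantile normalization. Under these scalings and the other alternatives tried, the members called higher numbered 6 to 12 and those called lower 5 to 7. These 2 ranges are given without the matching shares of all genes. The same sign in all 7 lines was found for 3 of those that rose, Cenpa, Bub3 and Nuf2 (4.87% of all genes), and for 4 of those that fell, Plk1, Birc5, Bub1 and Bub1b (9.29%). With median-ratio scaling, Plk1 and Birc5 no longer had 1 sign in all lines, and Ccnb1, Nusap1 and Ect2 did (6 higher and 2 lower in all 7, against 5.98% and 7.41% of all genes). The call of Anln (adjusted p = 0.039) was lost when any 1 of 20 of the 42 libraries was left out, with adjusted p up to 0.0694, and no other call was lost that way.

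**Figure D4:**
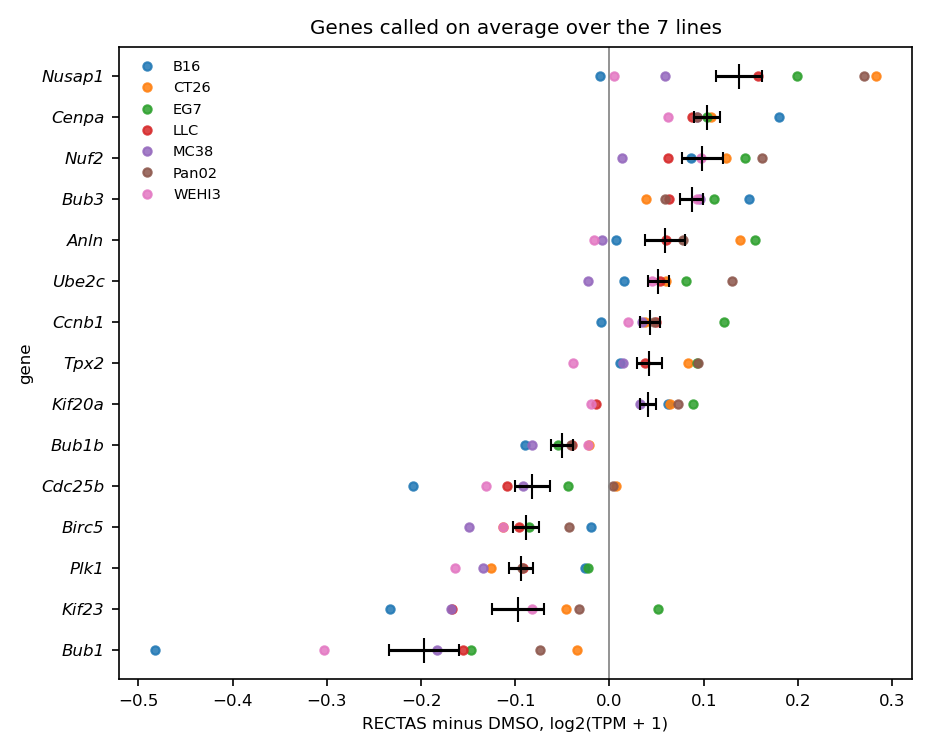
RECTAS minus DMSO on the log2(TPM + 1) scale (x axis) for the 15 members called on average over the lines (y axis). Coloured points are the 7 lines, the black tick is the mean over lines and the bar its SE. Bub1 has the largest mean, at -0.20, with B16 at -0.48, and Cenpa, Nuf2 and Bub3 lie right of 0 in all 7 lines.

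Among the mitotic kinases and the chromosomal passenger complex, Plk1 and Birc5 fell, and Aurka (0.02 ± 0.013 SE, adjusted p = 0.28) and Aurkb (adjusted p = 0.988) did not pass the test. Plk1 is the polo-like kinase that acts from mitotic entry to cytokinesis. In B16, Plk1 stood at 113, 111 and 109 TPM in DMSO and at 107, 109.6 and 110.0 TPM in RECTAS. In CT26, Plk1 stood at 121, 119 and 118 TPM in DMSO and at 109, 109 and 109.5 TPM in RECTAS. In EG7, Plk1 stood at 110.4, 108 and 107 TPM in DMSO and at 110.2, 104 and 106 TPM in RECTAS. The groups overlapped in B16 and EG7, and in CT26 all RECTAS libraries were lower. In LLC, Plk1 stood at 107, 115 and 113 TPM in DMSO and at 109.6, 105 and 99.7 TPM in RECTAS. In MC38, Plk1 stood at 87.9, 84.5 and 86.9 TPM in DMSO and at 79.6, 77.7 and 78.8 TPM in RECTAS. In Pan02, Plk1 stood at 109.9, 108 and 106 TPM in DMSO and at 101.18, 105 and 96.6 TPM in RECTAS. RECTAS lay below DMSO without overlap in MC38 and Pan02 but not in LLC. In WEHI3, Plk1 stood at 93.0, 96.7 and 93.6 TPM in DMSO and at 88.4, 82.2 and 82.0 TPM in RECTAS. Over the 7 lines the mean difference was -0.09 ± 0.013 (SE, log2; limma adjusted p = 4.23e-07), lower in 7 of 7 lines. The exons of Plk1 (GRCm38 chromosome 7, 122159439 to 122169873, plus strand) share 7.09% of their bases with Gm44985 on the opposite strand, which stood at 0.401 TPM.

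Birc5 encodes survivin, which brings Aurora B to centromeres and the midzone. In B16, Birc5 stood at 234, 229 and 247 TPM in DMSO and at 237, 239 and 225 TPM in RECTAS. In CT26, Birc5 stood at 279, 279 and 298 TPM in DMSO and at 262, 259 and 269.7 TPM in RECTAS. In EG7, Birc5 stood at 167, 173 and 169 TPM in DMSO and at 157, 162 and 161 TPM in RECTAS. RECTAS lay below DMSO in CT26 and EG7, and the groups overlapped in B16. In LLC, Birc5 stood at 209.6, 216 and 208 TPM in DMSO and at 195, 201.50 and 197 TPM in RECTAS. In MC38, Birc5 stood at 301.86, 288 and 286 TPM in DMSO and at 264, 264 and 261 TPM in RECTAS. In Pan02, Birc5 stood at 255, 267 and 278 TPM in DMSO and at 243, 259 and 275 TPM in RECTAS. LLC and MC38 did not overlap and Pan02 did. In WEHI3, Birc5 stood at 164, 166 and 168 TPM in DMSO and at 152, 152 and 157 TPM in RECTAS. The mean difference was -0.09 ± 0.014 (adjusted p = 4.72e-06), lower in 7 of 7 lines. Birc5 lies on chromosome 11 from 117849251 to 117855743 on the plus strand.

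Of the spindle checkpoint genes, Bub1 and Bub1b fell, Bub3 rose, and Ttk (0.02 ± 0.034) and Mad2l1 (adjusted p = 0.984) did not pass the test. Bub1, a kinase that recruits checkpoint proteins and shugoshin to kinetochores, had the largest difference of the set. In B16, Bub1 stood at 70.2, 71.4 and 75.4 TPM in DMSO and at 57.1, 45.2 and 52.9 TPM in RECTAS. In CT26, Bub1 stood at 43.0, 39.2 and 37.1 TPM in DMSO and at 42.8, 33.7 and 40.4 TPM in RECTAS. In EG7, Bub1 stood at 47.0, 45.03 and 46.9 TPM in DMSO and at 39.1, 42.4 and 43.8 TPM in RECTAS. RECTAS was lower without overlap in B16 and EG7. In LLC, Bub1 stood at 73.6, 53.4 and 72.8 TPM in DMSO and at 57.5, 53.0 and 67.6 TPM in RECTAS. In MC38, Bub1 stood at 54.3, 65.0 and 57.9 TPM in DMSO and at 50.7, 54.0 and 50.7 TPM in RECTAS. In Pan02, Bub1 stood at 42.6, 46.8 and 45.03 TPM in DMSO and at 43.1, 42.1 and 42.3 TPM in RECTAS. Only MC38 of these 3 did not overlap, and the second DMSO library of LLC lay with the RECTAS libraries. In WEHI3, Bub1 stood at 42.2, 36.6 and 41.3 TPM in DMSO and at 30.7, 34.1 and 31.8 TPM in RECTAS. The WEHI3 groups did not overlap. On average over the lines the difference was -0.20 ± 0.037 (SE, log2; adjusted p = 9.74e-05), from a mean of 52.7 TPM to 45.5 TPM, lower in 7 of 7 lines. Bub1 lies on chromosome 2 from 127801122 to 127831865 on the minus strand.

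Bub1b encodes BubR1, which with Bub3 and Mad2 binds Cdc20 and holds back the anaphase-promoting complex. In B16, Bub1b stood at 81.8, 81.8 and 82.3 TPM in DMSO and at 80.7, 71.8 and 78.7 TPM in RECTAS. In CT26, Bub1b stood at 46.8, 44.5 and 46.2 TPM in DMSO and at 44.96, 46.1 and 44.4 TPM in RECTAS. In EG7, Bub1b stood at 68.4, 69.2 and 68.1 TPM in DMSO and at 66.5, 66.0 and 65.6 TPM in RECTAS. RECTAS lay lower in B16 and EG7 and overlapped DMSO in CT26. In LLC, Bub1b stood at 95.1, 89.7 and 97.1 TPM in DMSO and at 91.6, 88.4 and 94.0 TPM in RECTAS. In MC38, Bub1b stood at 61.2, 59.9 and 59.8 TPM in DMSO and at 56.9, 56.9 and 56.9 TPM in RECTAS. In Pan02, Bub1b stood at 61.7, 60.7 and 63.0 TPM in DMSO and at 61.3, 59.9 and 59.1 TPM in RECTAS. MC38 did not overlap, and LLC and Pan02 did. In WEHI3, Bub1b stood at 101.18, 99.9 and 101.87 TPM in DMSO and at 101.56, 98.5 and 98.1 TPM in RECTAS. Over the 7 lines the mean difference was -0.05 ± 0.012 (adjusted p = 0.00158), lower in 7 of 7 lines.

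Bub3, the WD-repeat partner of both Bub1 and BubR1, moved the other way. In B16, Bub3 stood at 153, 153 and 154 TPM in DMSO and at 162, 171 and 177 TPM in RECTAS. In CT26, Bub3 stood at 134, 136 and 135 TPM in DMSO and at 137, 141 and 138 TPM in RECTAS. In EG7, Bub3 stood at 141, 143 and 142 TPM in DMSO and at 158, 151 and 153 TPM in RECTAS. RECTAS was above DMSO in all 3 of these lines. In LLC, Bub3 stood at 99.6, 105 and 98.4 TPM in DMSO and at 108, 108 and 100.5 TPM in RECTAS. In MC38, Bub3 stood at 111, 108 and 103 TPM in DMSO and at 117, 112 and 115 TPM in RECTAS. In Pan02, Bub3 stood at 143, 137 and 138 TPM in DMSO and at 143, 147 and 146 TPM in RECTAS. The groups overlapped in LLC alone. In WEHI3, Bub3 stood at 123, 119 and 121 TPM in DMSO and at 131, 129 and 127 TPM in RECTAS. The mean difference was 0.09 ± 0.012 (adjusted p = 5.89e-07), from 128 to 137 TPM, higher in 7 of 7 lines.

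At the centromere and kinetochore, Cenpa and Nuf2 rose and Cenpe, Cenpf, Ndc80, Spc25 and Knstrn did not pass the test on average. Cenpa encodes the histone H3 variant that marks centromeres. In B16, Cenpa stood at 282, 273 and 265 TPM in DMSO and at 317, 315 and 299 TPM in RECTAS. In CT26, Cenpa stood at 290.1, 289 and 298 TPM in DMSO and at 316, 326 and 304 TPM in RECTAS. In EG7, Cenpa stood at 163, 158 and 167 TPM in DMSO and at 186, 171 and 168 TPM in RECTAS. RECTAS was above DMSO in these 3 lines without overlap. In LLC, Cenpa stood at 341, 369.8 and 345 TPM in DMSO and at 384, 377 and 361 TPM in RECTAS. In MC38, Cenpa stood at 241, 238 and 230.1 TPM in DMSO and at 252, 251 and 254 TPM in RECTAS. In Pan02, Cenpa stood at 224, 223 and 216 TPM in DMSO and at 241, 235 and 230.1 TPM in RECTAS. LLC overlapped and the other two did not. In WEHI3, Cenpa stood at 180.3, 179 and 171 TPM in DMSO and at 181, 192 and 181 TPM in RECTAS. The WEHI3 groups did not overlap. On average over the lines the difference was 0.10 ± 0.014 (SE, log2; adjusted p = 4.21e-07), from 245 to 264 TPM, higher in 7 of 7 lines.

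Nuf2 is a subunit of the Ndc80 complex that grips microtubules. In B16, Nuf2 stood at 64.1, 63.2 and 72.6 TPM in DMSO and at 75.4, 70.1 and 66.8 TPM in RECTAS. In CT26, Nuf2 stood at 52.8, 50.5 and 52.2 TPM in DMSO and at 60.3, 54.2 and 55.3 TPM in RECTAS. In EG7, Nuf2 stood at 37.4, 37.8 and 37.4 TPM in DMSO and at 41.5, 40.3 and 43.0 TPM in RECTAS. The groups were apart in CT26 and EG7. In LLC, Nuf2 stood at 84.6, 73.3 and 85.1 TPM in DMSO and at 83.5, 79.4 and 90.7 TPM in RECTAS. In MC38, Nuf2 stood at 50.2, 54.4 and 54.3 TPM in DMSO and at 53.0, 56.1 and 51.3 TPM in RECTAS. In Pan02, Nuf2 stood at 41.9, 45.9 and 47.3 TPM in DMSO and at 48.4, 50.7 and 52.3 TPM in RECTAS. Pan02 was apart, and LLC and MC38 overlapped. In WEHI3, Nuf2 stood at 43.1, 42.8 and 42.7 TPM in DMSO and at 44.98, 47.8 and 45.04 TPM in RECTAS. Over the 7 lines the mean difference was 0.10 ± 0.022 (adjusted p = 0.000813), higher in 7 of 7 lines. Of the same complex, Ndc80 stood at 0.05 ± 0.033 (adjusted p = 0.347) and Spc25 at 0.02 ± 0.033 (adjusted p = 0.71).

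Among the cyclins and regulators of Cdk1, Ccnb1 rose by 0.04 ± 0.011 (SE, log2; adjusted p = 0.00271), higher in 6 of 7 lines, and Cdc25b fell. Without the line EG7, Ccnb1 stood at 0.03 and no longer passed (adjusted p = 0.0804). Ccna2, Ccnb2, Cdk1, Cdc25c and Wee1 had mean differences between -0.02 and 0.02 and did not pass the test. In B16, Cdc25b stood at 86.8, 81.6 and 80.2 TPM in DMSO and at 70.0, 70.9 and 73.7 TPM in RECTAS. In CT26, Cdc25b stood at 101.91, 100.68 and 102.01 TPM in DMSO and at 103, 102.04 and 100.66 TPM in RECTAS. In EG7, Cdc25b stood at 56.9, 57.1 and 58.8 TPM in DMSO and at 60.1, 54.2 and 53.4 TPM in RECTAS. RECTAS was lower without overlap in B16 alone of these. In LLC, Cdc25b stood at 79.2, 83.0 and 83.9 TPM in DMSO and at 74.2, 79.0 and 74.9 TPM in RECTAS. In MC38, Cdc25b stood at 70.2, 70.7 and 70.0 TPM in DMSO and at 64.9, 64.2 and 68.6 TPM in RECTAS. In Pan02, Cdc25b stood at 62.5, 61.3 and 57.9 TPM in DMSO and at 64.5, 60.1 and 57.9 TPM in RECTAS. LLC and MC38 did not overlap and Pan02 did. In WEHI3, Cdc25b stood at 16.5, 13.9 and 15.8 TPM in DMSO and at 13.9, 14.8 and 13.1 TPM in RECTAS. The mean difference of Cdc25b was -0.08 ± 0.019 (adjusted p = 0.00108), lower in 5 of 7 lines. Its exons share 2.47% of their bases with Spef1 on the opposite strand. Those of Ccna2 share 12.5% with Exosc9, also on the opposite strand, which stood at 55.5 TPM in DMSO.

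Of the anaphase-promoting complex's partners and substrates, Ube2c rose and Cdc20, Pttg1 and Espl1 did not pass the test (adjusted p = 0.891, 0.983 and 0.501). Ube2c is the ubiquitin-conjugating enzyme that starts chains on the complex's substrates. In B16, Ube2c stood at 343, 353 and 373 TPM in DMSO and at 375, 358 and 347 TPM in RECTAS. In CT26, Ube2c stood at 354, 344 and 354 TPM in DMSO and at 369, 363 and 365 TPM in RECTAS. In EG7, Ube2c stood at 198, 191 and 204 TPM in DMSO and at 208, 213 and 207 TPM in RECTAS. RECTAS was above DMSO in CT26 and EG7. In LLC, Ube2c stood at 422, 417 and 431 TPM in DMSO and at 438, 431 and 449 TPM in RECTAS. In MC38, Ube2c stood at 512, 504 and 488 TPM in DMSO and at 489, 498 and 494 TPM in RECTAS. In Pan02, Ube2c stood at 419, 429.7 and 430.2 TPM in DMSO and at 468, 451 and 481 TPM in RECTAS. LLC and Pan02 did not overlap, and MC38 did. In WEHI3, Ube2c stood at 291, 298 and 294 TPM in DMSO and at 306, 304 and 301.65 TPM in RECTAS. The mean difference was 0.05 ± 0.011 (adjusted p = 0.000433), higher in 6 of 7 lines. Ube2c shares 22.8% of its exonic bases with Tnnc2 on the opposite strand, which stood at 0.05 TPM in DMSO.

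Among the spindle proteins, Nusap1 and Tpx2 rose and Kif11, Kif2c, Hmmr and Dlgap5 did not pass the test. Nusap1 stabilises microtubules near chromosomes. In B16, Nusap1 stood at 50.4, 52.5 and 56.9 TPM in DMSO and at 54.8, 51.5 and 52.1 TPM in RECTAS. In CT26, Nusap1 stood at 23.9, 22.6 and 21.9 TPM in DMSO and at 28.9, 25.9 and 29.1 TPM in RECTAS. In EG7, Nusap1 stood at 36.7, 38.9 and 36.3 TPM in DMSO and at 41.0, 43.8 and 44.1 TPM in RECTAS. B16 overlapped and the other two did not. In LLC, Nusap1 stood at 48.9, 39.2 and 46.4 TPM in DMSO and at 48.9, 46.7 and 54.4 TPM in RECTAS. In MC38, Nusap1 stood at 31.4, 35.7 and 35.7 TPM in DMSO and at 34.7, 37.4 and 34.9 TPM in RECTAS. In Pan02, Nusap1 stood at 36.8, 39.5 and 40.3 TPM in DMSO and at 47.9, 45.5 and 47.9 TPM in RECTAS. Pan02 was apart, and LLC and MC38 overlapped. In WEHI3, Nusap1 stood at 39.5, 37.9 and 40.6 TPM in DMSO and at 40.1, 37.7 and 40.5 TPM in RECTAS. On average over the lines the difference was 0.14 ± 0.025 (adjusted p = 4.82e-05), higher in 6 of 7 lines, and 4.24% of its exonic bases lie opposite Oip5. Tpx2, which activates Aurora A on the spindle, rose by 0.04 ± 0.013 (adjusted p = 0.018), a call lost without the line CT26, EG7 or Pan02 (adjusted p = 0.0856, 0.114 and 0.108).

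In cytokinesis, Kif20a and Anln rose, Kif23 fell, and Prc1 (0.02 ± 0.018) and Ect2 (0.06 ± 0.031) did not pass the test. In B16, Kif20a stood at 113, 107 and 109 TPM in DMSO and at 116, 113 and 115 TPM in RECTAS. In CT26, Kif20a stood at 89.4, 89.0 and 91.0 TPM in DMSO and at 95.3, 93.4 and 92.9 TPM in RECTAS. In EG7, Kif20a stood at 57.5, 58.3 and 58.7 TPM in DMSO and at 61.6, 61.3 and 62.8 TPM in RECTAS. CT26 and EG7 were apart. In LLC, Kif20a stood at 104, 106 and 108 TPM in DMSO and at 105, 107 and 103 TPM in RECTAS. In MC38, Kif20a stood at 114, 113 and 112 TPM in DMSO and at 117, 117 and 114 TPM in RECTAS. In Pan02, Kif20a stood at 110.1, 108 and 109 TPM in DMSO and at 117, 115 and 113 TPM in RECTAS. Of these Pan02 alone was apart. In WEHI3, Kif20a stood at 47.0, 46.0 and 45.3 TPM in DMSO and at 46.0, 45.9 and 44.5 TPM in RECTAS. The mean difference of Kif20a was 0.04 ± 0.009 (adjusted p = 0.000484), higher in 5 of 7 lines. Kif20a shares 29.3% of its exonic bases with Cdc23 on the opposite strand, which stood at 52.9 TPM in DMSO and 52.1 TPM in RECTAS, so its value is uncertain.

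Kif23 had a larger difference, in the other direction. In B16, Kif23 stood at 83.2, 82.6 and 90.7 TPM in DMSO and at 77.0, 69.3 and 71.5 TPM in RECTAS. In CT26, Kif23 stood at 148, 135 and 127 TPM in DMSO and at 142, 124 and 132 TPM in RECTAS. In EG7, Kif23 stood at 68.1, 55.5 and 62.5 TPM in DMSO and at 63.9, 66.8 and 61.8 TPM in RECTAS. B16 was apart and the others overlapped. In LLC, Kif23 stood at 134, 117 and 136 TPM in DMSO and at 113, 114 and 117 TPM in RECTAS. In MC38, Kif23 stood at 107, 109 and 108 TPM in DMSO and at 99.3, 101.73 and 87.2 TPM in RECTAS. In Pan02, Kif23 stood at 147, 140.5 and 147 TPM in DMSO and at 145, 139.9 and 141 TPM in RECTAS. LLC and MC38 were apart. In WEHI3, Kif23 stood at 36.7, 35.2 and 39.7 TPM in DMSO and at 37.7, 37.4 and 30.5 TPM in RECTAS. Over the 7 lines the mean difference was -0.10 ± 0.028 (SE, log2; adjusted p = 0.00854), lower in 6 of 7 lines. Without the line B16 it was -0.07 and no longer passed (adjusted p = 0.076). Anln rose by 0.06 ± 0.021. The chromosome proteins Top2a (0.01 ± 0.022, adjusted p = 0.874) and Mki67 (0.04 ± 0.066, adjusted p = 0.722) did not pass the test.

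Fitted alone, each line gave few calls. In B16, 4 of 40 members passed limma over 6 libraries (4.1% of all genes, 0.703% higher and 3.4% lower): Cenpa rose by 0.18 ± 0.038 (SE, log2; adjusted p = 0.0497), and Bub1 (-0.48 ± 0.082, adjusted p = 0.0303), Cdc25b (-0.21 ± 0.043, adjusted p = 0.0476) and Dlgap5 (-0.26 ± 0.048, adjusted p = 0.0375) fell. In B16, Dlgap5 stood at 49.5, 51.8 and 47.0 TPM in DMSO and at 40.2, 40.4 and 42.3 TPM in RECTAS. Dlgap5, a spindle protein also called HURP, did not overlap. In EG7, 2 members rose and 0 fell (3.28% of all genes called, 1.42% higher and 1.85% lower), Ccnb1 by 0.12 ± 0.025 (adjusted p = 0.0494) and the separase gene Espl1 by 0.16 ± 0.031 (adjusted p = 0.0394). In EG7, Ccnb1 stood at 151, 155 and 157 TPM in DMSO and at 167, 169.6 and 169 TPM in RECTAS. In EG7, Espl1 stood at 69.3, 71.2 and 67.1 TPM in DMSO and at 77.9, 78.0 and 76.8 TPM in RECTAS. Both were apart in EG7. In Pan02, Nusap1 alone rose and 0 fell (1.68% of all genes called, 0.587% higher and 1.1% lower), by 0.27 ± 0.048 (adjusted p = 0.0454). In CT26, LLC, MC38 and WEHI3 limma called 0 members (1.99%, 0.194%, 1.29% and 2.08% of all genes), with 14, 3, 10 and 8 members at an unadjusted p under 0.05. The shares of all genes called higher and lower were 0.729% and 1.26% in CT26, 0.0422% and 0.152% in LLC, 0.41% and 0.878% in MC38, and 0.551% and 1.53% in WEHI3.

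Most of these calls were lost with fewer libraries, while the differences kept their direction. B16 gave 0 calls without DMSO library 1, 2 or 3 (0.422%, 0.215% and 0.663% of all genes) or RECTAS library 3 (0.272%). It gave 1 without RECTAS library 2 (0.849% of all genes) and 11 without RECTAS library 1 (12% of all genes). EG7 gave 1 call (Nusap1, 2.74% of all genes) without RECTAS library 1 and 0 without any other of its libraries (1.03% to 2.13%). Pan02 gave 0 without any one of its 6 (0.397% to 0.595% of all genes). CT26 gave 3 (Anln, Cenpe, Nusap1; 2.09% of all genes) without RECTAS library 2. With 1 library left out, the log2 difference ranged from -0.56 to -0.39 for Bub1 in B16, from 0.23 to 0.30 for Nusap1 in Pan02 and from 0.14 to 0.18 for Espl1 in EG7. Each of the 7 calls made with all libraries had an adjusted p of at least 0.0303.

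Without any test, the libraries of a line can be set side by side. All 3 RECTAS libraries lay above all 3 DMSO libraries for 17 members in EG7 (42.5%, against 14.9% of all genes), 16 in Pan02 (10.4% of all genes) and 13 in CT26 (32.5%, against 15%). The same held for 3 members in B16 (8.37% of all genes), 4 in WEHI3 (7.59%), 2 in LLC (3.92%) and 2 in MC38 (11%). All 3 lay below for 12 members in B16 (30.0%, against 26.5% of all genes), 8 in MC38 (20.0%, against 11.4%) and 6 in WEHI3 (15.0%, against 15.1%). The counts below were 3 in EG7 (11.1%), 3 in LLC (9.27%), 2 in CT26 (12.5%) and 1 in Pan02 (13.4%). The members' median difference was 0.07 in Pan02 (all genes -0.01), 0.06 in CT26 (0.02), 0.05 in EG7 (0.02) and 0.01 in LLC (-0.02). It was -0.02 in MC38 (0.00), -0.02 in WEHI3 (-0.02) and -0.05 in B16 (-0.06). Scaling changed the picture in B16: with median-ratio scaling, an alternative added after seeing the data, the members' median there was 0.02 (all genes 0.002), with 10 members above and 7 below (17.4% and 17% of all genes). The members' medians kept their sign in the other 6 lines, and in Pan02 13 members then lay above (10.7% of all genes). The counts above also moved elsewhere, to 12 in EG7 (11.6%), 10 in CT26 (13.6%), 6 in LLC (6.2%) and 1 in MC38 (11.3%). In WEHI3 4 lay above (9.44%). The members' median in CT26 was then 0.02 (all genes -0.0085).

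Whether the RECTAS difference was unequal between the lines was tested with limma's F-test over all 42 libraries, which called 0 members (3.07% of all genes), with 15 at an unadjusted p under 0.05. The smallest p-values were those of Ndc80 (adjusted p = 0.0974), Aurka (0.0994), Wee1 (0.112), Cenpe (0.112), Kif20a (0.119) and Nusap1 (0.119). The count depended on the second DMSO library of LLC. Without that library 9 members were called (9.98% of all genes): Aurka, Ccna2, Cenpe, Cenpf, Kif11, Mki67, Ndc80, Nusap1 and Wee1. Without the whole line LLC it was 9 (12.6% of all genes), with Bub1 in place of Ccna2, and without both LLC libraries numbered 2, an alternative added after seeing the data, it was 8 (9.89%). Leaving out RECTAS library 1 of B16 gave 2 calls (4.13% of all genes). Leaving out RECTAS library 2 of CT26 (3.83%), DMSO library 1 of LLC (3.76%) or RECTAS library 1 of Pan02 (2.44%) gave 1 each, near the share of all genes.

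Without that library, B16 had the lowest difference for 7 of the 9 and CT26 or Pan02 the highest for the same 7, the exceptions being Aurka and Ccna2. Of all 876 genes called in that fit, on unscaled TPM, 45.2% had these extremes and 53.1% had B16 lowest, so the pattern was common beyond the members. Nor are the 7 separate observations. Over all 42 libraries, with the second DMSO library of LLC included, their deviations between replicates correlated with those of Mki67, which is among them. The values were 0.62 (Wee1) to 0.95 (Cenpe), and they were not computed without that library. Mki67, shown first, is not among the 6 smallest p-values and was chosen after its values were seen. In B16, Mki67 stood at 148, 158 and 156 TPM in DMSO and at 134, 84.1 and 110.1 TPM in RECTAS. In CT26, Mki67 stood at 39.8, 37.2 and 27.8 TPM in DMSO and at 63.2, 41.97 and 52.0 TPM in RECTAS. Neither line overlapped, and they lay on opposite sides. In EG7, Mki67 stood at 109, 112 and 112 TPM in DMSO and at 118, 115 and 116 TPM in RECTAS. In LLC, Mki67 stood at 79.8, 43.0 and 78.2 TPM in DMSO and at 65.4, 53.3 and 77.1 TPM in RECTAS. In MC38, Mki67 stood at 30.0, 43.5 and 38.0 TPM in DMSO and at 39.8, 38.4 and 37.9 TPM in RECTAS. EG7 was apart, with RECTAS above, and LLC and MC38 overlapped. In Pan02, Mki67 stood at 60.8, 56.3 and 48.9 TPM in DMSO and at 69.0, 58.7 and 60.2 TPM in RECTAS. In WEHI3, Mki67 stood at 97.2, 94.3 and 99.3 TPM in DMSO and at 91.0, 100.83 and 82.4 TPM in RECTAS. The differences were -0.51 ± 0.147 (SE, log2) in B16 and 0.57 ± 0.171 in CT26, with adjusted p-values of 0.0843 and 0.14 within each line, and the adjusted p of the F-test was 0.127 with all libraries and 0.0158 without the second DMSO library of LLC.

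Cenpe had the same extremes, CT26 and B16, with the lines between them in another order. In B16, Cenpe stood at 18.5, 20.4 and 21.2 TPM in DMSO and at 16.9, 11.6 and 12.2 TPM in RECTAS. In CT26, Cenpe stood at 11.6, 11.2 and 8.67 TPM in DMSO and at 20.1, 13.1 and 17.5 TPM in RECTAS. In EG7, Cenpe stood at 20.9, 20.5 and 20.7 TPM in DMSO and at 22.4, 21.6 and 22.4 TPM in RECTAS. B16 was below, and CT26 and EG7 above. In LLC, Cenpe stood at 46.1, 21.03 and 41.5 TPM in DMSO and at 36.0, 26.2 and 44.2 TPM in RECTAS. In MC38, Cenpe stood at 16.1, 24.2 and 19.9 TPM in DMSO and at 19.0, 18.7 and 19.7 TPM in RECTAS. In Pan02, Cenpe stood at 21.3, 20.9 and 16.6 TPM in DMSO and at 26.7, 22.8 and 26.3 TPM in RECTAS. Pan02 was above and the others overlapped. In WEHI3, Cenpe stood at 18.4, 18.7 and 18.4 TPM in DMSO and at 18.6, 20.96 and 18.3 TPM in RECTAS. The differences were -0.54 ± 0.132 in B16, 0.63 ± 0.161 in CT26 and 0.36 ± 0.103 in Pan02, and the adjusted p of the F-test fell from 0.112 to 0.00746 without the second DMSO library of LLC.

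Ndc80, which carries the microtubule-binding head of its complex, had the smallest F-test p of the set. In B16, Ndc80 stood at 41.0, 42.8 and 45.2 TPM in DMSO and at 40.7, 32.4 and 33.3 TPM in RECTAS. In CT26, Ndc80 stood at 41.1, 40.2 and 38.6 TPM in DMSO and at 51.4, 41.3 and 46.5 TPM in RECTAS. In EG7, Ndc80 stood at 25.5, 24.5 and 25.2 TPM in DMSO and at 25.3, 28.3 and 27.3 TPM in RECTAS. B16 was below, CT26 above, and EG7 overlapped. In LLC, Ndc80 stood at 44.3, 32.2 and 40.8 TPM in DMSO and at 42.1, 38.0 and 45.7 TPM in RECTAS. In MC38, Ndc80 stood at 22.6, 27.0 and 24.2 TPM in DMSO and at 25.1, 24.2 and 22.5 TPM in RECTAS. In Pan02, Ndc80 stood at 43.8, 46.1 and 44.8 TPM in DMSO and at 53.2, 50.7 and 54.9 TPM in RECTAS. Pan02 was above without overlap. In WEHI3, Ndc80 stood at 24.8, 26.5 and 28.7 TPM in DMSO and at 26.3, 26.3 and 27.2 TPM in RECTAS. The adjusted p was 0.0206 without the second DMSO library of LLC.

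Aurka, the kinase of spindle poles, and Wee1 are also among the 6 smallest p-values, and the RECTAS difference of Aurka was highest in B16. In B16, Aurka stood at 152, 147 and 151 TPM in DMSO and at 159, 172 and 163 TPM in RECTAS. In CT26, Aurka stood at 83.4, 85.04 and 87.6 TPM in DMSO and at 80.3, 83.7 and 84.5 TPM in RECTAS. In EG7, Aurka stood at 99.9, 97.2 and 97.9 TPM in DMSO and at 98.8, 96.7 and 100.4 TPM in RECTAS. These values can be set beside the other lines. In LLC, Aurka stood at 138, 146 and 138 TPM in DMSO and at 141, 141 and 142 TPM in RECTAS. In MC38, Aurka stood at 153, 155 and 162 TPM in DMSO and at 152, 155 and 149 TPM in RECTAS. In Pan02, Aurka stood at 111, 112 and 118 TPM in DMSO and at 115, 126 and 124 TPM in RECTAS. RECTAS lay above DMSO without overlap in B16 and below it in no line. In WEHI3, Aurka stood at 67.5, 64.5 and 66.2 TPM in DMSO and at 68.4, 63.6 and 65.1 TPM in RECTAS. The differences of Wee1 had the extremes of Ndc80, with Pan02 highest and B16 lowest. In B16, Wee1 stood at 21.4, 22.9 and 20.8 TPM in DMSO and at 19.8, 18.7 and 20.0 TPM in RECTAS. In CT26, Wee1 stood at 16.7, 16.1 and 16.2 TPM in DMSO and at 17.6, 16.6 and 17.5 TPM in RECTAS. In EG7, Wee1 stood at 28.04, 29.5 and 28.01 TPM in DMSO and at 29.7, 28.8 and 29.6 TPM in RECTAS. EG7 had the highest mean of the lines in vehicle. In LLC, Wee1 stood at 15.9, 14.4 and 16.1 TPM in DMSO and at 15.7, 14.4 and 16.4 TPM in RECTAS. In MC38, Wee1 stood at 13.8, 13.5 and 13.8 TPM in DMSO and at 14.03, 14.4 and 13.6 TPM in RECTAS. In Pan02, Wee1 stood at 11.9, 11.0 and 11.9 TPM in DMSO and at 13.6, 12.8 and 12.2 TPM in RECTAS. RECTAS lay above DMSO without overlap in Pan02 and below it in B16. In WEHI3, Wee1 stood at 22.9, 22.5 and 23.2 TPM in DMSO and at 23.3, 23.5 and 22.4 TPM in RECTAS.

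**Figure D5:**
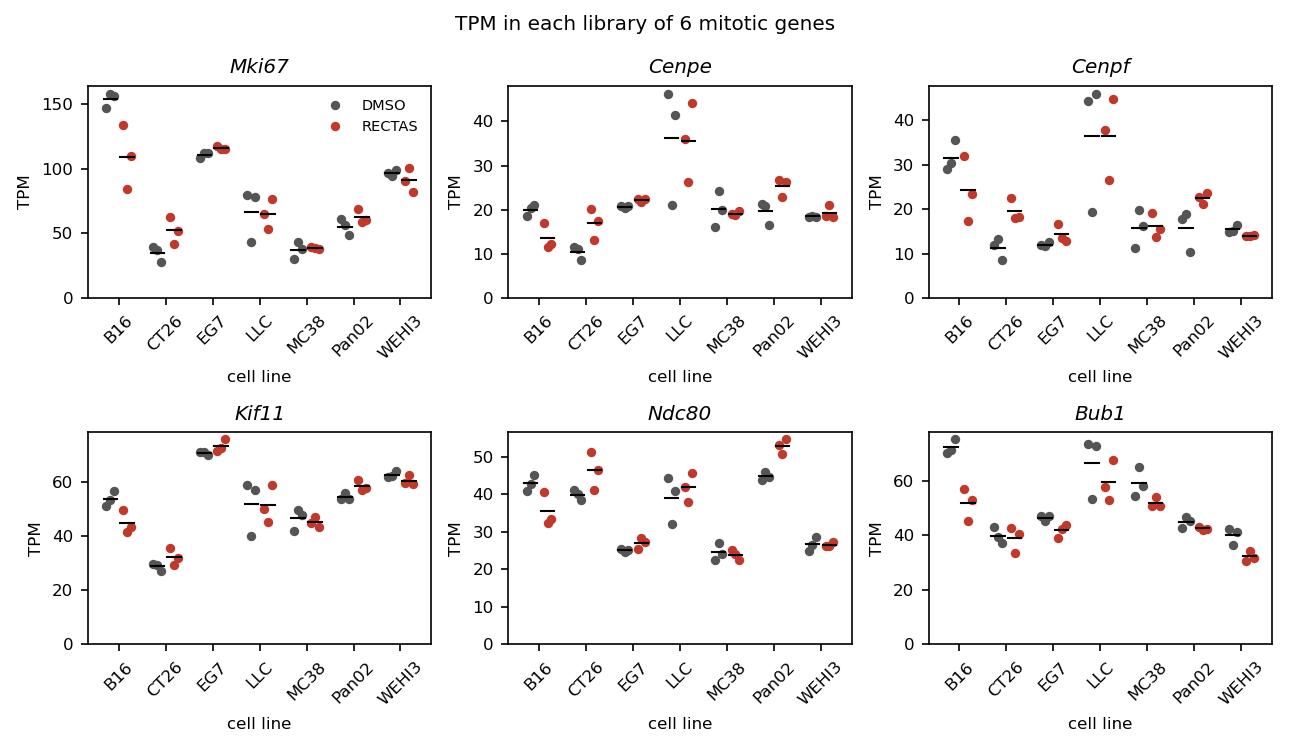
TPM (y axes, from 0) of Mki67, Cenpe, Cenpf, Kif11, Ndc80 and Bub1 in every library, by line (x axes), in DMSO (grey) and RECTAS (red), with the mean of 3 as a black bar. B16 falls from a mean of 154 to 109 TPM for Mki67 while CT26 goes from 34.9 to 52.4 TPM, and in LLC 1 DMSO point of Cenpe, at 21.03 TPM, lies below the others, at 46.1 and 41.5 TPM.

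Some members varied much more than others between replicates, and several of them varied together. The SD within groups was 0.31 for Cenpf, 0.25 for Cenpe, 0.23 for Mki67 and 0.22 for Espl1 on the log2 scale, against a median of 0.06 over the 40 members. Across the 42 libraries, deviations from the group mean correlated with those of Mki67 at 0.95 for Cenpe, 0.92 for Ttk, 0.91 for Kif11 and 0.88 for Cenpf. They correlated at -0.57 for Aurka, -0.52 for Bub3 and -0.47 for Birc5, as descriptions over libraries that enter in groups of 3. Over the 6 members with the largest spread (Cenpf, Cenpe, Mki67, Espl1, Bub1 and Kif11), the second DMSO library of LLC stood lowest, with a mean deviation of -0.49, against -0.08 over the other members. The second RECTAS library of LLC was next, at -0.27, and the first DMSO library of MC38 stood at -0.25. The 4 members with the largest spread also have long transcripts, of 11130, 7910, 10061 and 6658 bases for the longest coding form. Mad2l1, at 7557 bases, is longer than Espl1 and had an SD of 0.048, below the median. The rank correlation of spread with transcript length was 0.43 over the 40 members and that with mean TPM -0.63. The part of transcript length and of abundance in this spread was not tested.

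Further genes of mitosis, in lists written with earlier results of these data known, were read in the same fit, in which 25.8% of all genes were called. Of 17 genes of the anaphase-promoting complex and its regulators, 0 rose and 6 fell, with a median difference of -0.02. Cdc16, a scaffold subunit, fell by 0.27 on the log2 scale (SE 0.011; adjusted p = 2.44e-19), from a mean of 51.4 to 42.5 TPM, lower in 7 of 7 lines. Anapc11, the catalytic RING subunit, fell by 0.16 (SE 0.016), and Anapc15, which promotes turnover of the checkpoint complex, fell by 0.13 (SE 0.019), each in 7 of 7 lines. Of 35 further kinetochore and checkpoint genes, 6 rose and 8 fell. Zwilch, of the RZZ complex that recruits dynein to kinetochores, had a log2 change of -0.40 ± 0.032 (adjusted p = 7.75e-12) from 47.0 to 35.8 TPM, lower in 7 of 7 lines. Its partner Zw10 rose by 0.09 ± 0.015, higher in 7 of 7 lines, and Pmf1, a subunit of the MIS12 complex, fell by 0.11 (SE 0.015).

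Of 16 tested kinases and phosphatases of mitotic entry, 2 rose and 3 fell. Mastl, the Greatwall kinase that restrains a phosphatase opposing Cdk1, rose by 0.21 ± 0.037 (adjusted p = 4.46e-05), from 10.1 to 11.9 TPM, and Mnat1, the assembly factor of the Cdk-activating kinase, fell by 0.18 (SE 0.019; adjusted p = 3.96e-09). Ppp1cc, a catalytic subunit of protein phosphatase 1, fell by 0.04 (SE 0.008). Of 28 tested spindle and centrosome genes, 5 rose and 1 fell, with Nek2 (0.06) and Kif18b (0.06) higher and Ckap2 lower (-0.11). Of 18 cohesin and condensin genes, 2 rose and 1 fell: the condensin subunits Ncaph (0.08) and Ncapd2 (0.08) and, downward, Ncapd3 (-0.07). Of 16 tested genes of the DREAM, B-MYB, FOXM1 and NF-Y regulators, 4 rose and 3 fell. E2f5 rose by 0.18 ± 0.024 (adjusted p = 4.68e-07), Lin37 by 0.12 ± 0.032, and Tfdp1 had a difference of -0.06 ± 0.012, while Foxm1 stood at -0.02 ± 0.021 (adjusted p = 0.565; named for its role, after its value was seen).

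Among 25 genes of G1/S and replication, 3 rose and 3 fell, with a median difference of 0.00. Tyms, which makes thymidylate, rose by 0.09 ± 0.013, and the helicase subunit Mcm3 rose by 0.04 ± 0.010. Uhrf1, which acts in the upkeep of DNA methylation, had a difference of -0.09 ± 0.012. Of 7 tested genes of quiescence and arrest, 3 rose and 1 fell. Ccng2, a cyclin of resting cells, rose by 0.16 ± 0.034 (adjusted p = 0.000598), higher in 5 of 7 lines, Gadd45a rose by 0.13 ± 0.036, and Gadd45b had a difference of -0.08 ± 0.024 (adjusted p = 0.0161). The RECTAS difference of Gadd45a was unequal between the lines (F-test adjusted p = 0.0178).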

How the data were processed

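Polyadenylated RNA was profiled with a stranded mRNA kit, per the labels' protocols, in 42 libraries of 14 groups. The deposited values are TPM per gene, made by the authors; HISAT2 2.2.0 and RSEM 1.3.0, with the build GRCm38, appear in the submitters' processing notes. The depth and the counting's strand setting are unknown, so no counting interval is given.

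Members were matched by symbol. The members, the further lists and the tests were chosen with earlier results of these data known. Values were tested as log2(TPM + 1), so fold changes of low genes are understated, with limma 3.58.1 in R 4.3.3 (trend, Benjamini-Hochberg adjustment over all genes, threshold 0.05). The mean over lines and the F-test used 42 libraries and 14 group means (28 residual degrees of freedom) over genes that averaged 1 TPM or more in every line. Single lines were fitted on 6 libraries, and vehicle levels on 21. Named genes followed a rule: the 6 smallest p-values in each direction for the mean over lines, the 6 smallest for the F-test, up to 3 rises and 3 falls in each line, the 8 largest ranges in vehicle and the 3 smallest p-values of each further list. Motifs were searched in RefSeq promoter windows, and overlaps taken from the GRCm38 annotation. The fits were checked on simulated data, with noise drawn independently for each gene and library. That check does not cover deviations shared between genes, as seen between replicates here. Alternatives changed the pseudocount, filter, scaling, trend, replicate block, single libraries and lines. Figures used matplotlib 3.10.9 in Python 3.11.15.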

Additional observations from a re-analysis of the deposited data

How the results depend on the processing

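No called member's difference changed sign in the alternatives run on it, while the members' median in B16 turned from -0.05 to 0.02 with median-ratio scaling and stayed at -0.03 with quantile normalization. The members called on average over the lines numbered 12 to 18 over 58 settings, and 14 to 16 (8 to 10 higher, 6 to 7 lower) with 1 library left out. For that mean, 25.8% of all genes were called in the main fit and 25.4% with a pseudocount of 0.1, each with 15 members. The share of all genes is not given here for the other settings, so whether these member counts follow it cannot be read from the ranges. With 1 library left out, the F-test gave 0 to 9, B16 gave 0 to 11, CT26 0 to 3, EG7 0 to 1, and LLC, MC38, Pan02 and WEHI3 gave 0 to 0. The highest F-test and B16 counts came with 9.98% and 12% of all genes called, against 3.07% and 4.1% with all libraries. The highest CT26 and EG7 counts came with 2.09% and 2.74% of all genes, against 1.99% and 3.28%. In vehicle, unequal members with a range of at least 1 log2 numbered 27 to 28, and members at least 1 log2 from the other 6 lines numbered 2 to 2 in B16, 1 to 3 in CT26, 4 to 4 in EG7, 1 to 3 in LLC, 0 to 1 in MC38, 1 to 1 in Pan02 and 3 to 5 in WEHI3. Within lines, a pseudocount of 0.1 left 1 call in EG7 (3.4% of all genes), and a filter of 5 TPM gave 1 in CT26 (2.93%), 1 in MC38 (2.16%), 2 in Pan02 (2.71%) and 1 in WEHI3 (3.17%). B16, EG7 and Pan02 gave 0 with no filter (0.408%, 0.686% and 0.209% of all genes) and 0 with no intensity trend (2.63%, 2.61% and 0.82%). Median-ratio scaling gave 2 in B16 (3.95%), 2 in CT26 (2.8%), 0 in EG7 (3.74%) and 0 in Pan02 (2.19%), and in vehicle 1 in LLC and 2 in WEHI3. Quantile normalization gave 1 in B16 (3.12%), 2 in CT26 (2.96%), 0 in EG7 (3.67%) and 0 in Pan02 (1.98%). Same-numbered libraries correlated at -0.122 to 0.286 and in 0 lines were all over 0.1. LLC came nearest, at 0.093, 0.286 and 0.151, against -0.257 to 0.147 for its other pairs of a DMSO and a RECTAS library. The labels give only a number, and whether it marks a pairing is not known. With the replicate block, the F-test gave 1 (Cenpe; 3.56% of all genes), B16, EG7 and Pan02 gave 0 (0.215%, 1.35% and 0.397%) and the mean over lines 15. With a covariate for the axis of library spread, added after seeing the data, B16 gave 9 (6.55% of all genes), CT26 5 (7.08%), EG7 0 (2.3%) and Pan02 0 (2%). The F-test gave 9 without the line LLC (12.6%) and 8 without both LLC libraries numbered 2 (9.89%). The cause was not tested in any of these cases. TPM keep no depth, so the limits that depth sets are unknown.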

Other observations

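Outside mitosis, the vehicle level of G1/S and replication genes placed EG7 differently from the summed mitotic genes. The median log2(TPM + 1) of 25 such genes was 6.69 in B16 and 6.69 in EG7, 6.50 in LLC, 6.11 in CT26, 6.11 in WEHI3, 6.02 in MC38 and 5.98 in Pan02. The order depended on the summary. By the mean log2(TPM + 1) of these genes per DMSO library, LLC stood highest, at 6.56 to 6.62. WEHI3 stood lowest by that mean, at 5.91 to 5.95, as in the mitotic sum, and EG7 at 6.54 to 6.55. EG7, among the lowest lines for the summed mitotic genes, was thus among the highest here by either summary. A sum of TPM and a median of log2 values are unlike measures. By the mean log2(TPM + 1) of the 40 mitotic genes, DMSO libraries of EG7 stood at 6.00 to 6.01 and those of WEHI3 at 5.90 to 5.96. Every DMSO library of another line stood at 6.17 or more. The difference between the lists was not tested. The median of 11 quiescence and arrest genes was highest in Pan02, at 5.10, and lowest in CT26, at 3.13.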
